A study of Homo sapiens with 3 samples.

Results

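Peaks at the ends of long non-coding RNA (lncRNA) genes, away from protein-coding genes, were described in 2 chromatin immunoprecipitation sequencing libraries of HCT116, a human colorectal cancer cell line. A peak was included when its summit lay within 1 kb of an outer end of a lncRNA gene, more than 1 kb from every protein-coding gene end and outside every protein-coding gene body. The rule found 41 of the 1803 VCP peaks on the chromosomes and 200 of the 5692 Flag peaks, which is 241 of the 7535 peaks deposited in both. Gene positions came from the RefSeq table of GRCh38.p14, the hg38 build of the lists, and coordinates are 1-based.

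All cells overexpressed Flag-tagged VCP. The labels name neither the promoter nor the clone behind that expression, and cells without the tag were not analysed here. Formaldehyde-fixed chromatin was cut with micrococcal nuclease and precipitated with an antibody to VCP, which can bind the endogenous and the tagged protein, or with an antibody to Flag, and there was also an input library. Each antibody had 1 library without a replicate, so values are given as a description, with exact binomial (Clopper-Pearson) 95% intervals for shares and exact Poisson intervals for reads. Both kinds of interval reflect counting error alone and not variation between libraries. PCR copies of 1 molecule are not independent, so the read intervals may be too narrow. No difference below was tested.

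A lncRNA is a long transcript that is not translated into a conserved protein. Some are divergent, starting near a protein-coding promoter and running away from it, some are antisense to a protein-coding gene, some lie between genes, and some are hosts whose introns are processed into small nucleolar RNAs (snoRNAs) or whose transcripts carry microRNAs (miRNAs). VCP, also called p97, is an ATPase that pulls ubiquitin-marked proteins out of larger structures, chromatin included. MALAT1 is an abundant RNA of nuclear speckles, NEAT1 is the scaffold of paraspeckles, and NORAD is a cytoplasmic RNA that binds Pumilio proteins.

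RefSeq promoters with a summit near the start are shown first, because the positions described below refer to them. Each holds 300 bases in transcript direction, 250 before and 50 after the annotated start, on GRCh38.p14. Capitals mark the letters of the motifs searched on both strands, which were GGGCGG of the GC box, CCGGAAG of ETS factors, TGACGTCA of the cAMP response element, the NRF1 motif, ATGGCGGC of YY1, TATAAA of the TATA box, CCAAT of the CCAAT box, and AP-1 as TGAGTCA with its other form TGACTCA. LOC124901783 (chr7:155205454-155205753, plus strand) had the highest -log10 q among the VCP peaks, and its summit fell on base 110 of the window. LINC01144 (chr1:45303660-45303959, plus strand) was 1 of 3 lncRNA genes with a peak in both lists, and its Flag summit fell on base 289.
LOC124901783: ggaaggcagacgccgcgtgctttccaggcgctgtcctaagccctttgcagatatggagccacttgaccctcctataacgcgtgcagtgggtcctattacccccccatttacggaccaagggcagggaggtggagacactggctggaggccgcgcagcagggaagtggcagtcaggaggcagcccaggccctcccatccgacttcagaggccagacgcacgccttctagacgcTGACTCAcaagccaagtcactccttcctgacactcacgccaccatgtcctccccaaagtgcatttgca
LINC01144: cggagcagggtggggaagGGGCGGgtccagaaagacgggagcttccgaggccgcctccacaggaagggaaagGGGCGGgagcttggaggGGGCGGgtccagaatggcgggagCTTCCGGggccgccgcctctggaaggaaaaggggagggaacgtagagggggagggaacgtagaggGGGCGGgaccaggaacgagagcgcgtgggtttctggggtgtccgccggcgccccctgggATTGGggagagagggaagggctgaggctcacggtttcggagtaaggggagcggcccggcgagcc

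Flag summits lay 9 bp before and 8 bp after the annotated starts of LINC00886 (chr3:156817013-156817312, minus strand) and LINC00673 (chr17:72592755-72593054, minus strand), on bases 242 and 259 of their windows. At NORAD (chr20:36050911-36051210, minus strand) the Flag summit fell on base 222, and at MALAT1 (chr11:65497488-65497787, plus strand) on base 106. The windows of LINC00886 and MALAT1 held 3 and 5 copies of GGGCGG, the core of a GC box.
LINC00886: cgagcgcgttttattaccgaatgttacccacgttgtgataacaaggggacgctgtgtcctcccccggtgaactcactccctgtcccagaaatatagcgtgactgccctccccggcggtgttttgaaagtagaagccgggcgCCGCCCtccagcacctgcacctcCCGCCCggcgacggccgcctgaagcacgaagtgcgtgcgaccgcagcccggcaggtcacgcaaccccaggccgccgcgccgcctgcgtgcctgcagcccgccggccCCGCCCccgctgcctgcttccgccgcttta
LINC00673: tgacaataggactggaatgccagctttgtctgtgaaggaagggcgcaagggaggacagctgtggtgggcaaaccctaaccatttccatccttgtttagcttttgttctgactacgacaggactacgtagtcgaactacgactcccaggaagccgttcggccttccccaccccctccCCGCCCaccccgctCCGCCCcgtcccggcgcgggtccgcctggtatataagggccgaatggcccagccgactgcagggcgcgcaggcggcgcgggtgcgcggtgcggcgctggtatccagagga
NORAD: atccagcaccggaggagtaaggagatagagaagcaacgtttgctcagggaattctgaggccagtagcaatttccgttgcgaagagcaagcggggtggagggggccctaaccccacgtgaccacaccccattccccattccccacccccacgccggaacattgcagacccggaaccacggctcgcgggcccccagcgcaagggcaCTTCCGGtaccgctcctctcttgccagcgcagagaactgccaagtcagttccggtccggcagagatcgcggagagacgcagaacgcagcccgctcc
MALAT1: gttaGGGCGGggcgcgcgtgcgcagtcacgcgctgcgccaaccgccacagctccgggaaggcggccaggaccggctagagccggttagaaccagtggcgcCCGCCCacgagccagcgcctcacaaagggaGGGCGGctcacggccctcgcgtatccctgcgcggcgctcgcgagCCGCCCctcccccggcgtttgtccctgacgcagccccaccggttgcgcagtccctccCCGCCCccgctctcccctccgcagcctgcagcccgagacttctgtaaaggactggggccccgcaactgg

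The snoRNA hosts DANCR (chr4:52712144-52712443, plus strand) and SNHG8 (chr4:118278512-118278811, plus strand) had Flag summits on bases 244 and 224. The DANCR window held 5 copies of CCAAT in either orientation.
DANCR: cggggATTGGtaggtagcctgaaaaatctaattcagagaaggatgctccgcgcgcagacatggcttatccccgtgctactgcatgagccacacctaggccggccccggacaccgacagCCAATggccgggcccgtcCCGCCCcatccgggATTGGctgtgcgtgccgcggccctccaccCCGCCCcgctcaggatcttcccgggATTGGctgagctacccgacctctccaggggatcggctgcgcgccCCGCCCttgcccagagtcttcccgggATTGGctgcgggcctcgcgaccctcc
SNHG8: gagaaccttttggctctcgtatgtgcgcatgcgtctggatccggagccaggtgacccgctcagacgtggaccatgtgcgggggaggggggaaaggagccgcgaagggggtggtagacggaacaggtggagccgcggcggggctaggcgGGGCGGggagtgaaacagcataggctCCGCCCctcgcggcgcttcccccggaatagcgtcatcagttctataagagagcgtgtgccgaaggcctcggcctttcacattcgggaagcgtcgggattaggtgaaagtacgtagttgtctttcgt

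Flag peaks also lay at the starts of miRNA hosts, and the mature miRNAs they carry are shown with the seed, bases 2 to 8, in capitals. MIRLET7A1HG carries hsa-let-7a-5p (chr9:94175962-94175983), hsa-let-7f-5p (chr9:94176353-94176374) and hsa-let-7d-5p (chr9:94178841-94178862), and MIRLET7IHG carries hsa-let-7i-5p (chr12:62603691-62603712), all on the plus strand. These 4 share the seed GAGGUAG of the let-7 family, which is known to repress growth-promoting genes such as those of the RAS family. MIR23AHG carries hsa-miR-23a-3p (chr19:13836595-13836615), hsa-miR-27a-3p (chr19:13836447-13836467) and hsa-miR-24-3p (chr19:13836289-13836310) on the minus strand, with 3 different seeds. The sequences are those of RefSeq.
hsa-let-7a-5p: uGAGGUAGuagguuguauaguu
hsa-let-7f-5p: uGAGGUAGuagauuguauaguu
hsa-let-7d-5p: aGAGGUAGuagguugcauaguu
hsa-let-7i-5p: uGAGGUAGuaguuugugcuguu
hsa-miR-23a-3p: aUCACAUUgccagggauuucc
hsa-miR-27a-3p: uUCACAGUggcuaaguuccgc
hsa-miR-24-3p: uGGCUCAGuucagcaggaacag

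The lncRNA-end peaks made up 2.27% of the VCP list (95% interval 1.64% to 3.07%) and 3.51% of the Flag list (3.05% to 4.03%). The 41 VCP peaks lay at 44 lncRNA genes and the 200 Flag peaks at 199, since 3 VCP and 15 Flag peaks were near more than 1 lncRNA. Of the 18010 lncRNA genes on the chromosomes, 13011 had an outer end that was itself over 1 kb from protein-coding gene ends and outside protein-coding bodies, and are called eligible below. Of the 199 Flag genes 198 were eligible, and OIP5-AS1 was not, although its summit passed the rule. A VCP peak marked 0.338% of the eligible genes (0.246% to 0.454%) and a Flag peak 1.52% (1.32% to 1.75%). A lncRNA without a peak in a list has no value there, so its enrichment in that library is not known.

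The peaks were low in reads in both libraries. Fold enrichment, the peak caller's ratio of reads at the summit to local background, had a median of 3.28 over the 41 VCP peaks (95% interval of the median 3.08 to 3.31), with a range of 2.28 to 4.74. The same median was 3.61 at VCP peaks of protein-coding gene ends and 3.28 over the whole VCP list. Over the 200 Flag peaks the median fold was 3.51 (3.39 to 3.59), with a range of 2.34 to 10.4, against 3.67 at protein-coding gene ends and 3.49 over the whole Flag list. In reads, a VCP summit held a median of 10 (7 to 17) over a background of 1.94, and a Flag summit a median of 11 (7 to 40) over a background of 2.27. The median reads were also 10 over the whole VCP list and 11 over the whole Flag list. The lists are each scaled to their own background, so folds were not compared between them.

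Of the 41 VCP peaks, 4 had a false discovery rate q of at most 0.05 (9.76%, 2.72% to 23.1%), where 6.49% of all VCP peaks reached it. Of the 200 Flag peaks, 73 reached it (36.5%, 29.8% to 43.6%), where 33.8% of all Flag peaks reached it. Both shares lay near those of the whole list, whose value fell inside the interval each time. A stricter -log10 q of at least 5 was reached by 0 of the 41 VCP peaks, which allows a share of up to 7.32%, and 0.277% of all VCP peaks reached it. It was reached by 10 of the 200 Flag peaks, where 3.41% of all Flag peaks did.

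**Figure D1:**
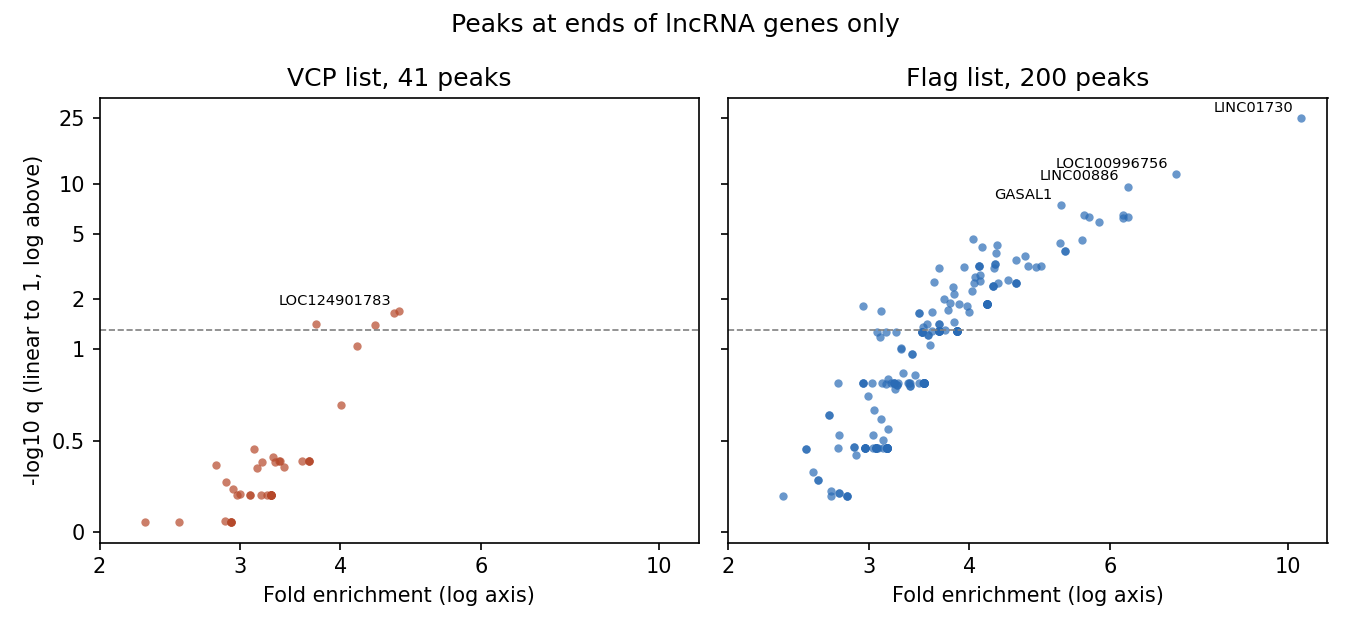
Fold enrichment (x axis, log scale) against -log10 q (y axis, linear to 1 and log above) for each of the 41 VCP and 200 Flag peaks at lncRNA ends, with the dashed line at q of 0.05. The highest fold is 4.74 within the VCP list and 10.4 within the Flag list, at LINC01730. Folds are not compared between the lists.

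Overlap between the lists was found at 1 place. An overlap of at least 1 bp with a Flag peak was found for 1 of the 41 VCP peaks (2.44%, 0.0617% to 12.9%), where 10.9% of all VCP peaks had one, a share inside that interval. Conversely, 1 of the 200 Flag peaks overlapped a VCP peak (0.50%, 0.0127% to 2.75%), where 3.44% of all Flag peaks did, a share above that interval. At protein-coding gene ends the overlap covered 128 of 395 VCP peaks (32.4%, 27.8% to 37.3%) and 127 of 2027 Flag peaks (6.27%, 5.25% to 7.41%). Among peaks away from protein-coding genes and from lncRNA ends it was 3.35% for VCP (2.23% to 4.80%) and 1.55% for Flag (1.04% to 2.22%). The intervals of lncRNA ends overlapped these in both lists and did not reach those of protein-coding ends, and neither difference was tested.

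By gene, 3 lncRNAs had a peak in both lists, which is 6.82% of the 44 VCP lncRNA genes and 1.51% of the 199 Flag lncRNA genes. The overlapping pair lay at LOC124902142, an uncharacterised lncRNA on chromosome 9 whose strand is not in the table. Its VCP peak (chr9:33375184-33375562) had a fold of 3.0 with 11 reads and a -log10 q of 0.210. Its Flag peak (chr9:33375384-33375649) had a fold of 5.64 with 20 reads and a -log10 q of 6.28. The summits were 66 bp apart, and the nearest protein-coding gene end was 4289 bp from the VCP summit.

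The other 2 shared genes, LINC01144 and LOC105378691, lie beside each other on chromosome 1 and share the same pair of peaks, which did not overlap. The VCP peak (chr1:45304546-45304735) had a fold of 2.87 with 8 reads and a -log10 q of 0.0607, and its summit was 825 bp after the start of LINC01144. The Flag peak (chr1:45303853-45304171) had a fold of 6.23 with 17 reads and a -log10 q of 6.21, and its summit was 38 bp after that start. Both Flag peaks of the shared genes were thus among the 10 with a -log10 q of at least 5, while neither VCP peak reached a q of 0.05.

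**Figure D2:**
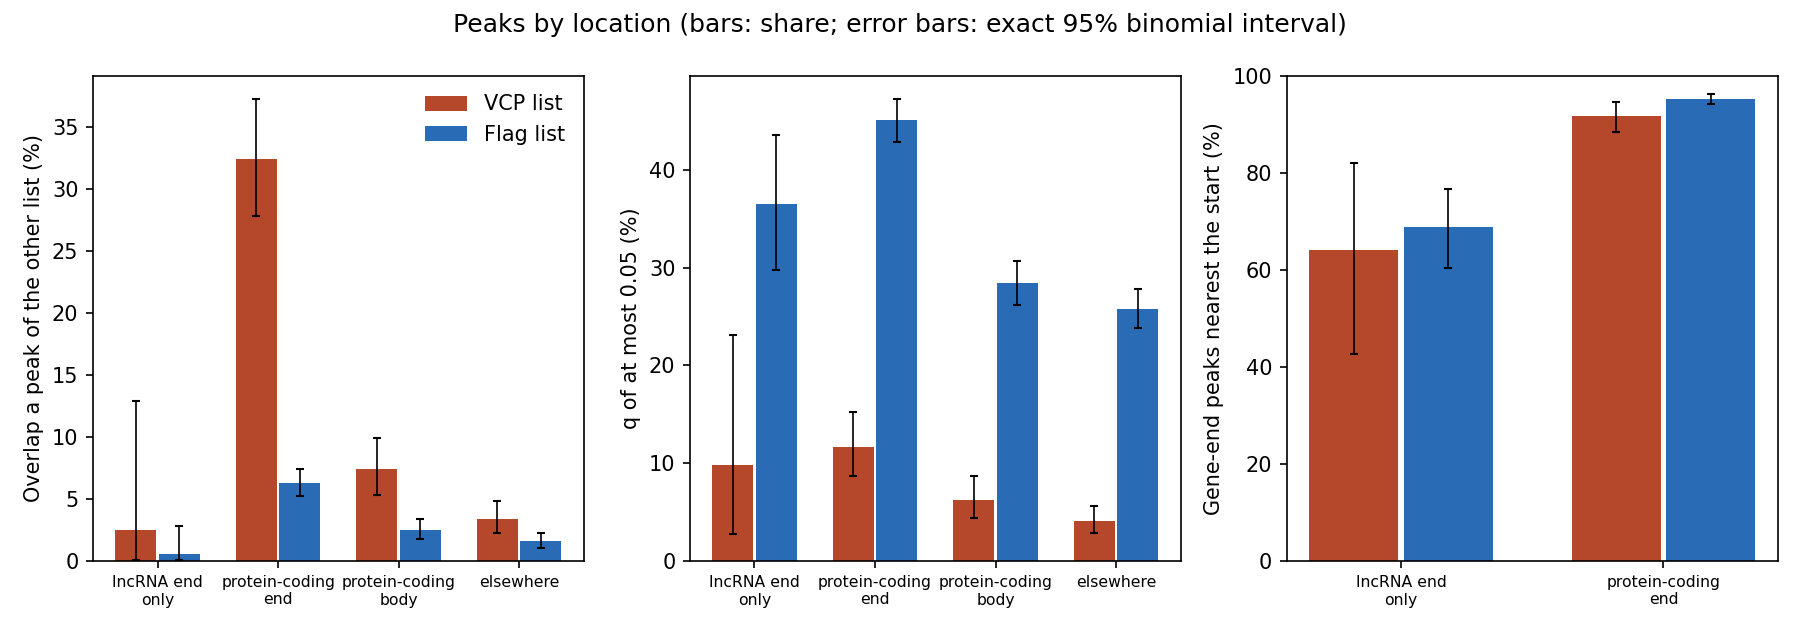
Share of peaks (%, y axes) by location that overlap the other list, that have a q of at most 0.05, and, for gene-end peaks of known strand, that lie nearest the start, with VCP left of Flag and exact 95% binomial intervals. At lncRNA ends the overlap is 2.44% in VCP and 0.50% in Flag, against 32.4% and 6.27% at protein-coding ends.

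Where strand was known, most peaks lay nearer the start than the end of the lncRNA. This held for 16 of 25 VCP peaks (64.0%, 42.5% to 82.0%) and 93 of 135 Flag peaks (68.9%, 60.4% to 76.6%). At protein-coding gene ends the start was nearer for 303 of 330 VCP peaks (91.8%, 88.3% to 94.5%) and 1613 of 1694 Flag peaks (95.2%, 94.1% to 96.2%). The table gives no strand for the lncRNAs of the other 16 VCP and 65 Flag peaks, and only outer gene ends were used. The shares at lncRNAs lay below those at protein-coding genes without overlap of the intervals. The rule leaves out peaks at lncRNA starts on promoters shared with a protein-coding gene, and the protein-coding set had no matching exclusion. The shares are therefore not comparable as they stand, and neither the difference nor the part of this exclusion in it was tested.

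Flag summits were gathered at the start itself. Of the 93 Flag peaks nearest a start, 51 lay within 250 bp of it, with a median distance of 204 bp, and of the 42 nearest an end, 10 did, with a median distance of 531 bp. Of the 16 VCP peaks nearest a start, 6 lay within 250 bp of it, with a median of 324 bp, and of the 9 nearest an end, 5 did, with a median of 196 bp. Among Flag peaks, 36 of 93 nearest a start (38.7%) and 15 of 42 nearest an end (35.7%) passed the q threshold of 0.05, which are close shares. Of all Flag peaks, 33.8% passed it. In the VCP list 3 of 16 passed it at starts (18.8%, 4.05% to 45.6%) and 0 of 9 at ends (0.00% to 33.6%). Both intervals hold the 6.49% of all VCP peaks that passed it.

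**Figure D3:**
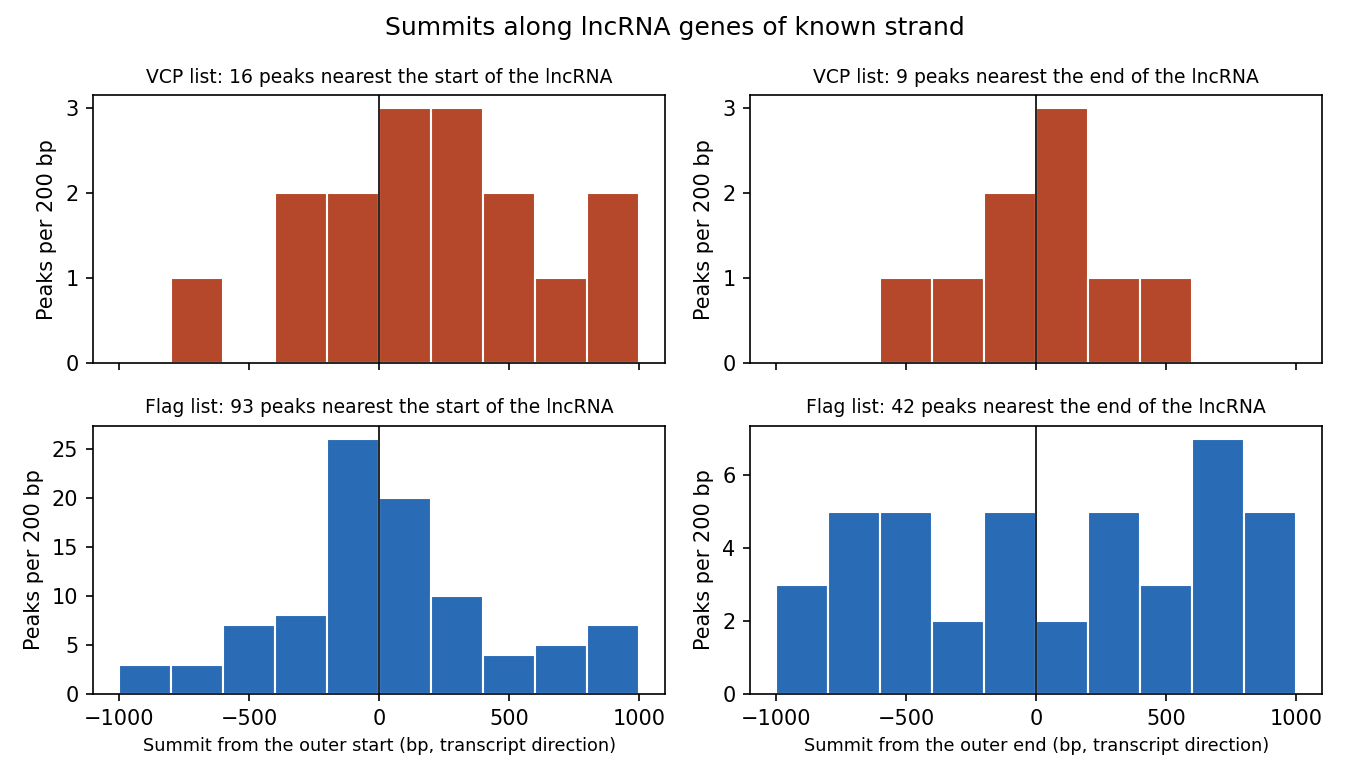
Number of peaks per 200 bp (y axes) by position of the summit relative to the outer start or end of the lncRNA (x axes, bp in transcript direction), VCP above Flag. In the Flag list 51 of 93 summits nearest a start lie within 250 bp of it, against 10 of 42 nearest an end.

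The summit lay inside the lncRNA gene for 25 of 41 VCP peaks (61.0%, 44.5% to 75.8%) and 100 of 200 Flag peaks (50%, 42.9% to 57.1%). Median distance to the lncRNA end was 376 bp for VCP and 363 bp for Flag. The nearest protein-coding gene end was a median of 37733 bp away for VCP and 20482 bp for Flag. It lay within 5 kb for 5 VCP and 47 Flag peaks, and none lay within 50 kb of 15 VCP and 63 Flag peaks. At the edge of the rule, the outermost included VCP peak was 894 bp from LINC01509, with a fold of 4.01 and a -log10 q of 0.697, and the first left out was 1004 bp from LOC124906027, with a fold of 3.12 and a -log10 q of 0.389. The outermost included Flag peak was 982 bp from STPG2-AS1, with a fold of 3.37, and the first left out was 1001 bp from MICALL2-DT, with a fold of 3.99.

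Most of the marked lncRNAs were classed as intergenic, the class left when no other applied. A lncRNA of unknown strand could not be called divergent by position, nor could one whose protein-coding partner had no listed start. The intergenic class held 38 of 44 VCP genes (86.4%, 72.6% to 94.8%) and 155 of 199 Flag genes (77.9%, 71.5% to 83.5%), against 77.3% of the 13011 eligible lncRNA genes. Divergent lncRNAs were 2 of 44 VCP genes (4.55%) and 12 of 199 Flag genes (6.03%), against 9.44% of eligible genes. Antisense lncRNAs were 2 VCP genes (4.55%) and 17 Flag genes (8.54%), against 7.89%. Small-RNA hosts were 1 VCP gene (2.27%) and 11 Flag genes (5.53%, 2.79% to 9.68%), against 2.02%. The remaining 1 VCP and 4 Flag genes overlapped a protein-coding gene on the same or an unknown strand. Among them, LOC105371710 had a VCP fold of 3.65, and LOC105371874 and LINC00963 had Flag folds of 4.13 and 3.67.

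Read the other way, a Flag peak marked 11 of 263 eligible host genes (4.18%, 2.11% to 7.36%), 16 of 1026 antisense genes (1.56%, without OIP5-AS1), 155 of 10054 intergenic genes (1.54%) and 12 of 1228 divergent genes (0.977%). The interval of the hosts lay above that of all eligible genes, and this difference was not tested. A VCP peak marked 1 of 263 hosts (0.380%), 2 of 1026 antisense, 38 of 10054 intergenic (0.378%) and 2 of 1228 divergent genes (0.163%). The rule keeps only divergent lncRNAs whose peak is over 1 kb from the protein-coding gene end, so a peak on a shared promoter is not counted here. Class was read from the symbol or from position, with a 5 kb limit for divergent starts. Divergent and antisense positions needed a known strand, but a host needed only a small RNA gene within its span. Strand was compared for miRNAs at hosts of known strand only, and not for snoRNAs. NEAT1, PVT1 and LOC349160, of unknown strand, are thus hosts by position alone.

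**Figure D4:**
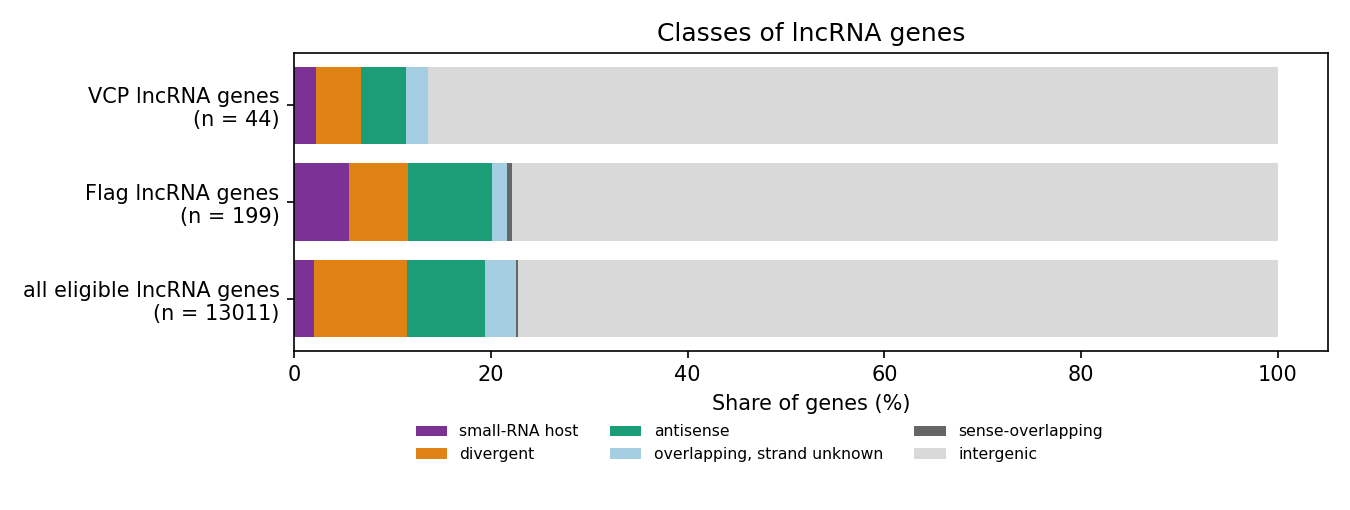
Share of lncRNA genes (%, x axis) in each class for the 44 genes with a VCP peak, the 199 with a Flag peak and all 13011 eligible genes. The intergenic class, left when no other applied, takes 86.4%, 77.9% and 77.3%, and small-RNA hosts 2.27%, 5.53% and 2.02%.

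Among the small-RNA hosts, 1 had a VCP peak. LINC01926 contains a snoRNA gene and had a VCP peak with a fold of 2.92 and 7 reads (2.81 to 14.4), 534 bp after its start. The 11 Flag hosts had folds of 2.34 to 4.15 with a median of 3.16, and 1 of them, NEAT1, reached a q of 0.05, where 33.8% of all Flag peaks did. All 8 Flag hosts with a known strand had the summit nearest the start. NEAT1, which contains MIR612, had a fold of 4.15 with 22 reads (13.8 to 33.3) over a background of 4.54 and a -log10 q of 4.17, with the summit 578 bp from one end.

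The snoRNA hosts are known for short exons and rapid turnover of the spliced RNA, with snoRNAs cut from the introns. DANCR, which contains SNORA26 and MIR4449, had a Flag peak 7 bp before its start, with a fold of 3.16 and 8 reads (3.45 to 15.8). SNHG8, which contains SNORA24, had the same fold and reads 27 bp before its start, and the nearest protein-coding gene end was 1303 bp away. SNHG5, which contains SNORD50A and SNORD50B, had a fold of 3.49 with 12 reads, 599 bp before its start. SNHG21, placed here by its symbol with no small RNA found for it, had a fold of 2.75 with 8 reads, 65 bp before its start. None of these 4 reached a q of 0.05.

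At 4 miRNA hosts of known strand, MIRLET7A1HG, MIRLET7IHG, MIR23AHG and MIR1915HG, the Flag summit lay nearer the start than any of their miRNAs. MIRLET7A1HG had a fold of 3.86 with 10 reads and a -log10 q of 1.29, 381 bp before its start and 10080 bp from the hairpin of let-7a. MIRLET7IHG had a fold of 2.34 with 13 reads over a background of 4.99, 20 bp after its start and 923 bp from its hairpin. MIR23AHG had a fold of 3.67 with 11 reads, 590 bp before its start, and the nearest of its hairpins was 6849 bp away. MIR1915HG had a fold of 3.15 with 15 reads, 161 bp before its start and 780 bp from its hairpin. LOC349160, which contains MIR490, had a fold of 3.29 with 12 reads, and its summit was 261820 bp from that hairpin. PVT1, a lncRNA of chromosome 8 that contains MIR1204, had a fold of 3.12 with 9 reads, and its summit was 482 bp from that hairpin.

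The divergent lncRNAs had 1 VCP peak. LINC01232 and LINC00449 share it and start near TM9SF2, which encodes a membrane protein of the endosome and Golgi, and the peak had a fold of 3.28 with 8 reads. The 13 Flag peaks had folds of 2.75 to 5.54 with a median of 3.46, and 9 lay nearest the start. A q of 0.05 was reached by 5 of them, where 33.8% of all Flag peaks reached it. The highest fold was at NRSN2-AS1, divergent from the transcription factor gene SOX12, with 5.54, 15 reads (8.40 to 24.7) and a -log10 q of 4.59. LOC124901372, divergent from FOXO3, a forkhead transcription factor of stress responses, had a fold of 5.27 with 14 reads, 43 bp before its start and 1276 bp from the protein-coding end. LOC105373043, divergent from TOB2, had a fold of 4.35 with 13 reads.

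Other divergent Flag lncRNAs had lower folds. LOC105372716, divergent from MRGBP, a subunit of the NuA4 acetyltransferase complex, had 2 peaks with folds of 4.21 and 2.75 on either side of its start. LINC00857, divergent from the annexin gene ANXA11, had a fold of 3.49 with 12 reads and a -log10 q of 1.27. SMAD3-DT, divergent from the TGF-beta signal transducer SMAD3, had a fold of 3.09 with 15 reads, 72 bp after its start. Only 2 of the 12 divergent Flag genes carry the DT suffix, SMAD3-DT and TMEM263-DT, and the other 10 were placed here by position.

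The antisense lncRNAs had 2 VCP peaks. LOC107987043 overlaps SMARCA2, which encodes an ATPase of the SWI/SNF chromatin remodeler, on the other strand. Its VCP peak had a fold of 4.42 with 12 reads (6.20 to 21.0) and a -log10 q of 1.40, 648 bp inside its outer start. LOC105377500, antisense to the RNA-binding protein gene RBM46, had a fold of 3.4 with 9 reads and a -log10 q of 0.357. The summit at LOC107987043 lay inside the lncRNA gene, and that at LOC105377500 lay 115 bp beyond its end.

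The 17 antisense Flag peaks had folds of 2.59 to 6.23 with a median of 3.59, and 7 reached a q of 0.05, where 33.8% of all Flag peaks did. Of the 16 eligible antisense Flag genes, 14 were placed here by symbol and 2 by position alone. SLC38A4-AS1, named for the amino acid transporter gene SLC38A4, had a fold of 6.23 with 18 reads (10.7 to 28.4) and a -log10 q of 6.50, 438 bp before its start. OIP5-AS1, the vertebrate lncRNA also called cyrano, which carries a site for miR-7, had a fold of 4.57 with 12 reads, 958 bp inside its outer end and 335 bp before the start given by the RefSeq promoter. ZMIZ1-AS1 had a fold of 4.28 with 13 reads, 71 bp before its start, and MSRB3-AS1 a fold of 4.21 with 11 reads, 42 bp after it. HM13-AS1 and EEF1A1-AS1, named for a signal peptide peptidase and a translation elongation factor, had folds of 3.94 and 3.79. Their summits lay 21 and 131 bp from one end. SLC38A4-AS1, ZMIZ1-AS1, EEF1A1-AS1 and NDST1-AS1 overlapped no protein-coding gene body, so their class rests on the symbol.

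The VCP peaks with the 3 highest -log10 q were intergenic. LOC124901783 on chromosome 7 had a fold of 4.74 with 12 reads (6.20 to 21.0) over a background of 1.74 and a -log10 q of 1.69, 141 bp before its start. LINC02716 on chromosome 11 had a fold of 4.67 with 12 reads and a -log10 q of 1.65, 94 bp after its start. LINC01603 on chromosome 8 had the most reads, 17 (9.90 to 27.2), with a fold of 3.73 and a -log10 q of 1.42. With LOC107987043 these were the 4 VCP peaks with a q of at most 0.05.

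No other VCP peak reached that threshold, and those next in -log10 q are given first. LOC107985108 on chromosome 1 had a fold of 4.19 with 11 reads. The gene of an asparagine tRNA, TRN-GTT6-1, lay 206 bp from its summit and the lncRNA end 333 bp. The peak therefore cannot be assigned to the lncRNA alone. It lies in the same part of chromosome 1 as LOC100996756, described below, and mappability there was not tested. LINC01509 had a fold of 4.01 with 10 reads, 894 bp after its start. LSINCT5 had a fold of 3.12 with 14 reads, 238 bp after its start. The others given here are known lncRNAs from lower in the list, and peaks between them are left out. HULC, a lncRNA first named for its high level in liver cancer, had a fold of 3.58 with 9 reads (4.12 to 17.1), 197 bp outside one end. PWAR6, of the imprinted Prader-Willi and Angelman region, had a fold of 2.94 with 12 reads, and PRNCR1, a prostate cancer lncRNA of chromosome 8, a fold of 3.24 with 8 reads.

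The highest Flag peak lay at LINC01730 on chromosome 20 (chr20:3811734-3812230). It had a fold of 10.4 with 40 reads (28.6 to 54.5) over a background of 2.95 and a -log10 q of 25, and its summit was inside the gene, 506 bp before the end. A weaker Flag peak lay 968 bp before the start of the same gene, with a fold of 3.22 and 11 reads. LOC100996756 on chromosome 1 had a fold of 7.26 with 26 reads and a -log10 q of 11.5. It lies near the centromere, in a stretch known for large duplications, so its reads may belong to a near-identical copy. LINC00886 on chromosome 3, with its summit 9 bp before the start, had a fold of 6.31 with 26 reads (17.0 to 38.1) and a -log10 q of 9.61.

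Others past a -log10 q of 5 were LINC02846 with a fold of 5.56 and 21 reads, 357 bp before its start, and LINC02773 with a fold of 6.32 and 17 reads, 113 bp after its start. LOC105371785 had a fold of 5.81 with 18 reads, and an snRNA gene lay 104 bp from its summit. GASAL1 on chromosome 8 had 4 Flag peaks within 1 kb of its ends, with folds of 5.21, 4.30, 3.26 and 2.95 and with 26, 16, 11 and 22 reads. The gene is 4193 bp long, so these peaks share a short stretch and are not separate loci. In all, 9 lncRNAs were nearest to 2 or more Flag peaks, 20 peaks together, and none was nearest to more than 1 VCP peak.

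MALAT1 had Flag peaks at both ends. At the start (chr11:65497360-65497704) the fold was 4.32 with 19 reads (11.4 to 29.7) and a -log10 q of 3.80, 145 bp before the annotated start. Beyond the end (chr11:65506763-65507146) it was 4.12 with 18 reads (10.7 to 28.4) and a -log10 q of 3.20, 310 bp past the outer end. The peak beyond the end also lay on TALAM1, the antisense partner of MALAT1, and 652 bp from MASCRNA, the tRNA-like RNA cut from the MALAT1 end. From 1 kb outside NEAT1 to 1 kb outside MALAT1, an 85.7 kb stretch of chromosome 11, there were 6 Flag peaks, of which 4 were lncRNA-end peaks, and 0 VCP peaks. The 4 were those of NEAT1 and MALAT1 and 1 at ENEMAL, which had a fold of 4.28 with 13 reads.

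Several Flag summits lay on or beside the annotated start of an intergenic lncRNA. NORAD had a fold of 4.57 with 16 reads (9.15 to 26.0) and a -log10 q of 3.45, 29 bp before its start. LINC00673 had a fold of 4.04 with 25 reads over a background of 5.44 and a -log10 q of 4.65, 8 bp after its start. LINC00513 had a fold of 4.31 with 17 reads, 5 bp before its start. LINC01556 had a fold of 4.33 with 21 reads, and its summit lay on the leucine tRNA gene TRL-AAG2-2, 141 bp before the lncRNA start, so the peak cannot be assigned to the lncRNA alone. DLEU1, a long lncRNA gene deleted in chronic lymphocytic leukaemia, had a Flag peak at each end, with folds of 3.67 before the start and 4.21 beyond the end.

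A few summits lay near other small genes. Within 1 kb of a tRNA gene were 1 VCP and 3 Flag peaks, and within 1 kb of an snRNA gene 0 VCP and 3 Flag peaks. At TRIM7-AS2 the Flag summit was 107 bp from TRT-TGT6-1, a threonine tRNA gene, with a fold of 2.96. At LINC02739 it was 186 bp from TRF-GAA2-1, a phenylalanine tRNA gene. Pseudogenes, transcribed or not, were within 1 kb of, or contained, 2 VCP and 8 Flag summits.

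Known lncRNAs were looked up in 4 lists. For VCP the background share is 0.338% of eligible genes, and the lists are too short to be read against it. Of 56 snoRNA and miRNA hosts listed, 43 were eligible, 0 had a VCP lncRNA-end peak, which allows a share of up to 6.98%, and 6 had a Flag one (DANCR, SNHG8, SNHG5, MIRLET7A1HG, SNHG21 and MIR23AHG). Counting peaks at either end without the protein-coding exclusion, 1 of the 56 had a VCP peak (MIRLET7BHG) and 11 a Flag peak, with SNHG3, GAS5, SNHG9, SNHG22 and MIRLET7BHG added. Of 12 abundant nuclear or ubiquitous lncRNAs in the table, 9 were eligible, of which 0 had a VCP peak, which allows a share of up to 33.3%. NEAT1, MALAT1, NORAD and OIP5-AS1 had a Flag peak, the last without being counted as eligible. Across all eligible lncRNA genes the Flag share was 1.52%.

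Of 24 lncRNAs studied in colorectal cancer that were in the table, 19 were eligible. HULC had a VCP peak, and CCAT1, CASC11, PVT1 and LINC00857 had Flag peaks with folds of 3.22, 3.17, 3.12 and 3.49. CCAT1, CASC11 and PVT1 lie on chromosome 8, in a region often gained in colorectal cancer. Chromosome 8 held 4 of the 41 VCP peaks (9.76%, against 8.15% of all VCP peaks) and 16 of the 200 Flag peaks (8.00%, against 5.55% of all Flag peaks), and the part of DNA copy number in these shares was not tested. Of 9 eligible lncRNAs tied to the p53 pathway, which is intact in HCT116, 0 had a VCP peak, which allows a share of up to 33.3%, and 1 had a Flag peak (PVT1). Across all eligible genes 0.338% had a VCP peak and 1.52% a Flag peak, and neither list was tested against these shares.

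The promoters at Flag peaks were rich in G and C. The 93 Flag peaks with a RefSeq start within 1 kb and its promoter in the table fell on 90 distinct promoter windows, since 3 lncRNAs had 2 peaks on 1 window. Over these 90 windows the median G+C content was 62.3% (59.7% to 65.0%), and the median ratio of observed to expected CpG was 0.684 (0.583 to 0.779). Over the 16 windows of VCP peaks these medians were 54.0% (40.7% to 65.3%) and 0.549 (0.280 to 0.758). All 8125 eligible lncRNA genes with a promoter in the table had medians of 49.0% and 0.275, and 15842 protein-coding genes had 62.7% and 0.761. Windows at peaks were those of the start nearest the summit and the other windows those of the outermost start. The Flag windows had medians near those of protein-coding genes. For VCP the interval of G+C spanned the medians of both backgrounds, and that of the CpG ratio lay between them and held neither. Expression in HCT116 was not measured here.

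**Figure D5:**
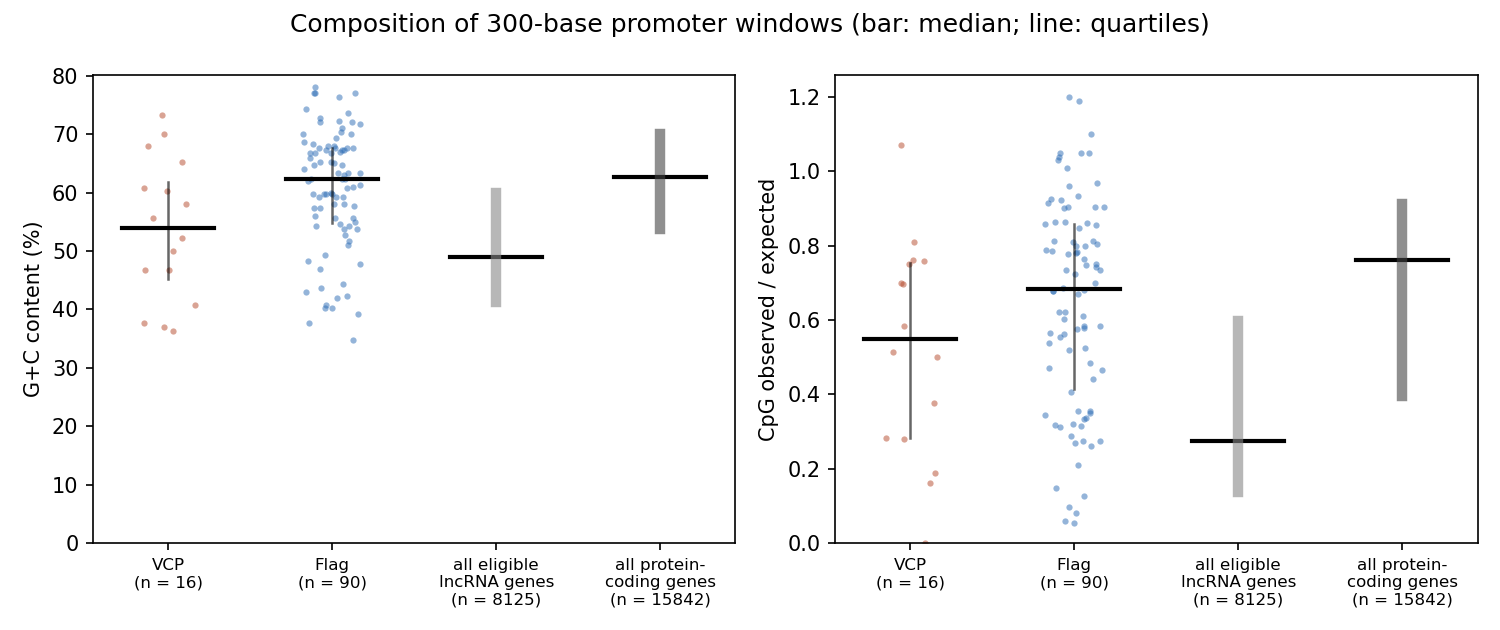
G+C content (%) and observed over expected CpG of 300-base promoter windows, with a point for each distinct window at a VCP or Flag peak, black bars for medians and vertical lines for quartiles. The Flag medians are 62.3% and 0.684 and the VCP medians 54.0% and 0.549, against 49.0% and 0.275 for all eligible lncRNA genes.

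Motif letters were counted in the same windows. GGGCGG, on either strand, was in 54 of 90 Flag windows (60%, 49.1% to 70.2%) and 4 of 16 VCP windows (25%, 7.27% to 52.4%), against 24.0% of eligible lncRNA and 58.3% of protein-coding windows. CCGGAAG, the core of an ETS site, was in 11 of 90 Flag windows (12.2%) and 2 of 16 VCP windows, against 5.64% and 14.2% of those backgrounds. TATAAA was in 7 of 90 Flag windows (7.78%) and 6 of 16 VCP windows (37.5%, 15.2% to 64.6%), against 15.8% of lncRNA and 9.75% of protein-coding windows. CCAAT was in 28 Flag windows (31.1%) and 6 VCP windows (37.5%), against 35.8% and 36.4%.

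The AP-1 letters were in 7 Flag windows (7.78%) and 2 VCP windows (12.5%), against 6.72% of lncRNA and 3.62% of protein-coding windows. The first window shown above is that of LOC124901783, where the letters lie after the summit. ATGGCGGC of YY1 was in 1 Flag and 1 VCP window, the NRF1 motif in 1 Flag window and no VCP window, and TGACGTCA in 0 of 90 Flag and 0 of 16 VCP windows. A match describes the letters only and does not show a bound site.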

How the data were processed

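The peak lists of both antibodies were used. The build was hg38 and the tools named were MACS2 2.1.0, Bowtie 1.1.2, Trimmomatic 0.33 and bcl2fastq 2.17, per the submitters' processing notes. Settings were not given in the sources used here. Per the labels' protocols, chromatin was digested with micrococcal nuclease. The deposited score was not used. The fold enrichment is the authors' ratio per peak, and the -log10 p and -log10 q (a q-value on a -log10 scale) are the authors' deposited values. The lowest -log10 p was 3.00 in both lists. Peaks were called per library. Left out were 13 VCP and 27 Flag peaks on other contigs, and the input was not used here.

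Reads at each summit were recovered as the whole number that gave the authors' -log10 p as a Poisson tail, given the fold and a pseudocount of 1 read. The match was within 0.001 in all 1803 VCP and 5692 Flag peaks. Total depth is not known from the lists. The lowest background was 1.74 reads for VCP and 1.85 for Flag, and 39.0% of VCP and 28.0% of Flag lncRNA-end peaks stood at it, against 23.6% and 31.6% of all peaks of each list.

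Gene ends came from RefSeq GRCh38.p14, with 58961 of 59792 rows kept. That table has no strand, so starts and strands came from its promoter table, which covers 11461 of 18010 lncRNA genes. A peak was assigned to the lncRNA with the nearest end. Medians have intervals from order statistics, and a count of 0 was given a limit of 3 counts. The members, lncRNA lists, classes and motifs were chosen with earlier results of these data known. Named lncRNAs were those in both lists, the 10 highest by -log10 q in each list, the 3 highest folds per class, all hosts and the members of the lists, not all of which are printed, and the rest were named after their values were seen. Alternatives were stricter q thresholds, other distances, other overlap rules and leaving out genes with only a LOC symbol. The rule and the read recovery were tested on simulated data. Python 3.11.15, pandas 2.3.3 and scipy 1.17.1 were used.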

Additional observations from a re-analysis of the deposited data

How the results depend on the processing

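No paired analysis was possible because each antibody had 1 library and no replicate. Of 79 values recomputed under other settings, 27 stayed within 1.5 times the main count or within its counting interval, and 52 moved. Most settings change by construction which peaks enter, and the overlap rules keep the same peaks.

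With a q of at most 0.05, 4 VCP peaks at 4 lncRNA genes were left (3.42% of such VCP peaks, median fold 4.55), and 73 Flag peaks at 74 genes (median fold 4.21). Shares at starts, here and below, are of the peaks of known strand only. For these VCP peaks that share was 100% (29.2% to 100%). No overlap was left between the lists (0.00% of VCP and of Flag), nor any gene in both (0). With a -log10 q of at least 5, 0 VCP peaks, 0 VCP genes and 0.00% of such VCP peaks were left. No VCP median, overlap or start share therefore exists there. In the Flag list 10 peaks at 11 genes were left (5.15% of such Flag peaks), with a median fold of 6.23. Of those of known strand 83.3% lay at starts (35.9% to 99.6%). The overlap was 0.00%, with 0 genes in both.

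Within 500 bp of a lncRNA end there were 27 VCP peaks at 28 genes (1.5% of the list) and 125 Flag peaks at 129 genes (2.20%). Of the Flag peaks of known strand 78.4% lay at starts. There was 0.00% overlap for VCP and for Flag, and 0 genes in both. Within 2 kb there were 63 VCP peaks at 67 genes (3.49%), 4.78% of the Flag list and 8 genes in both. Over 5 kb from protein-coding ends, the overlap was 0.00% for VCP and 0.00% for Flag, and 2.69% of the Flag list remained. Without genes that have only a LOC symbol, there were 15 VCP peaks at 16 genes (0.832%) and 111 Flag peaks at 104 genes (1.95%). Of those of known strand, 100% of VCP peaks (66.4% to 100%) and 79.3% of Flag peaks (68.9% to 87.4%) lay at starts. The overlap was 0.00% for VCP and for Flag, with 1 gene in both. When at least 50% of both peaks had to be covered, the overlap was 0.00% for VCP and 0.00% for Flag. The single overlap thus rests on LOC124902142. The share at starts was added, with its alternatives, after the data were seen.

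Depth limits single peaks: summits held 7 to 17 reads for VCP and 7 to 40 for Flag, and 7 reads have a counting interval of 2.81 to 14.4. Low mappability, DNA copy number and binding without the tag were not tested.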
